A study of Mus musculus with 24 samples.

Results

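Levels of 10 heat shock genes of the cytosol were followed through muscle tissues trained with light: the inducible Hsp70 genes Hspa1a and Hspa1b, the constitutive Hsp70 gene Hspa8, the Hsp110 gene Hsph1, the Hsp90 genes Hsp90aa1 and Hsp90ab1, the J-domain cochaperones Dnajb1 and Dnaja1, the nucleotide exchange factor Bag3, and the transcription factor Hsf1. They are 10 of the 56941 genes in the count table, and all 10 passed the filter on low counts that kept 13318 genes. They were picked because Hspa1a was low at 1 and 4 Hz and spread widely at 10 Hz, so the values of Hspa1a and of its near-identical copy Hspa1b are given as a description with no test. The other 8 genes were chosen with the same libraries in view, and their tests are no independent support for that choice.

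The tissues were grown on a fibrin gel from C2C12 cells, an established mouse myoblast line that fuses into contractile fibers, and all carried the ChR2::tdTomato genotype, a light-gated cation channel fused to a fluorescent protein. From the first day of differentiation they were lit with blue pulses of 1, 4, or 10 Hz over a daily session of 30 min, while control tissues were not lit, and RNA was taken on day 14. Each of the 4 conditions had 6 libraries from separate wells, and the study describes spontaneous twitching in all conditions, control included. The libraries summed to between 4.09 and 15.2 M (mega) counts, and the total was higher at 4 Hz than in control (means of 9.13 and 5.67 M, 2-sided exact permutation p = 0.00433, adjusted p = 0.013, n = 6 per condition).

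Heat shock proteins are chaperones that bind unfolded or partly folded proteins and let go of them in cycles of ATP binding and hydrolysis. Hsp70 works with J-domain proteins, which deliver clients and trigger hydrolysis, and with exchange factors such as Hsp110 and Bag3, which release the nucleotide, while Hsp90 receives many clients from Hsp70 at a later step. HSF1 is held inactive by chaperones in unstressed cells, and when unfolded proteins draw those chaperones away it forms trimers and binds heat shock elements, arrays of inverted GAA units in the promoters of these genes. In skeletal muscle, Hsp70 rises after damaging or intense exercise, and Bag3 takes part in clearing damaged proteins from the Z-disc.

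Hspa1a (ENSMUSG00000091971, chr17:35188166-35191132, minus strand, GRCm39) and Hspa1b (ENSMUSG00000090877, chr17:35175412-35178214, minus strand) are single-exon genes that lie 9951 bases apart. Their promoters are shown as a description of how alike the copies are, while the split of reads between them rests on the transcripts. The lines below give the 250 bases before each start site, with the inverted GAA pair in capitals.
Hspa1a, chr17:35191133-35191382, minus strand: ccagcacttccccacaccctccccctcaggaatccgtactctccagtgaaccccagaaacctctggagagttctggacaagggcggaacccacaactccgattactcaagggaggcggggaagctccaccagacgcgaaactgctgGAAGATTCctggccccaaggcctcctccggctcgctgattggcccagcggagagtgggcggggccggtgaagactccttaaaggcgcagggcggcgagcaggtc
Hspa1b, chr17:35178215-35178464, minus strand: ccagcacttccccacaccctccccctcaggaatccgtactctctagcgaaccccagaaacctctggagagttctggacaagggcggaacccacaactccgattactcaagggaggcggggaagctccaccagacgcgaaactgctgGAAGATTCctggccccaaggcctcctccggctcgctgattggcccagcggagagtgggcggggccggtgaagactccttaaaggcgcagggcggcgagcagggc

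The promoters were identical at 247 of 250 bases and differed by C44T, T47C, and T249G, with the Hspa1a base first and positions counted from 1 at the 5′ end of the lines above. The transcripts were also alike: 58.8% of the 50-base stretches of Hspa1a occurred exactly in Hspa1b, and 62.3% of those of Hspa1b occurred in Hspa1a, against 0 shared with Hspa8. Reads of 50 bases were sequenced from both ends, so reads could be split between the copies, and the sum of both genes is given beside each.

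Promoters came from RefSeq, were matched to GRCm39, and were in the table for 6 of the 10 genes: Hspa1a, Hspa1b, Hsph1, Dnajb1, Dnaja1, and Bag3. Hspa8, Hsp90aa1, Hsp90ab1, and Hsf1 are named only. The motif searched was GAANNTTC or TTCNNGAA, each of which reads the same on both strands, and matches of the one may overlap matches of the other. It was present in 12.8% of all 32851 promoter windows of 250 bases. Among the 6 genes, 4 had a match in at least 1 window. Hsph1, Dnajb1, and Dnaja1 had more than 1 window, so this count cannot be set against the share of single windows. In Hspa1a and Hspa1b, whose promoters are nearly identical, the match lay 104 to 97 bases before the start. The sites of the other 2 genes are shown with 11 bases on each side.
Hsph1, chr5:149559816-149559845, minus strand: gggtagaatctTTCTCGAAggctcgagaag
Dnaja1, chr4:40722333-40722362, plus strand: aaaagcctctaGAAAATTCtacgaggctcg

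The Hsph1 site lay 54 to 47 bases before one annotated start and 33 to 26 bases before another. The Dnaja1 site lay 124 to 117 bases before 1 of its 3 annotated starts, and the windows of the other starts held no match. Dnajb1 and Bag3 had no match in these windows. A longer array, GAANNTTCNNGAA or TTCNNGAANNTTC, was present in 0.466% of all windows and in 0 of the windows of the 6 genes.

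The libraries carried the markers of differentiated muscle: the summed level of the 8 muscle markers was 6820 to 8970 CPM (counts scaled to a common library size) in control, 9830 to 13800 CPM at 1 Hz, 10200 to 16000 CPM at 4 Hz, and 7170 to 11100 CPM at 10 Hz. Of 8 markers of other cell types, 2 passed the filter; Ptprc was at 0 in 23 of 24 libraries and Plin1 in 21, while Cd68 was at 65.7 to 121 CPM. Pdgfra, a marker of fibroblasts, was at a mean of 12.1 CPM in control and 16.6 CPM at 1 Hz (adjusted p = 0.0257, under the log2 difference of 0.5 that a call also needed), and it was lower at 10 Hz than at 1 Hz by edgeR (log2 difference -0.77, adjusted p = 0.000441), with no overlap. The share of mitochondrial transcripts was lower at 1 Hz than in control (means of 1.88% and 2.60%, 2-sided exact permutation p = 0.0152, adjusted p = 0.038, n = 6 per condition). The part of these shifts in the heat shock values was not tested. A list of 19 small RNAs that carry no poly(A) tail also moved with the conditions. Their summed share was 97.4 to 168 CPM in control, 15.1 to 70.2 CPM at 1 Hz, 18.0 to 51.1 CPM at 4 Hz, and 38.3 to 271 CPM at 10 Hz. The difference from control was past the test at 1 and 4 Hz (2-sided exact permutation p = 0.00216 each, adjusted p = 0.0081, n = 6 per condition) and not at 10 Hz (exact permutation p = 0.885). At 1 and 4 Hz the share did not overlap control, so this property of the libraries and the stimulation cannot be told apart there. Per the labels, poly(A) RNA was selected except in some samples of low input, which were ribodepleted, and since it is not stated which, neither the share nor its use as a covariate was checked by library type.

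The inducible Hsp70 genes stood far below control in all tissues trained at 1 and 4 Hz. In control, Hspa1a was at 52.0, 73.2, and 91.9 CPM (lowest, median, and highest of 6 libraries, scaled by the trimmed mean of M-values). At 1 Hz it was at 8.63, 13.7, and 17.2 CPM, and at 4 Hz at 6.97, 10.25, and 20.7 CPM. All 12 libraries stimulated at 1 or 4 Hz were lower than all 6 control libraries. The mean of 72.2 ± 13.7 CPM in control (SD, n = 6) stood against 13.0 ± 3.19 CPM at 1 Hz, a log2 difference of -2.46 ± 0.52 (SE), and 12.4 ± 5.35 CPM at 4 Hz, a log2 difference of -2.52 ± 0.51 (SE). These levels rested on 35 to 2015 estimated counts per library.

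At 10 Hz, Hspa1a did not form 1 level. Replicates 1 to 6 were at 58.0, 106, 210, 22.5, 9.94, and 8.02 CPM. Replicates 2 and 3 were above all control libraries, replicate 1 was within the control range, and replicates 4, 5, and 6 were below all control libraries, with replicate 5 inside the ranges of the tissues trained at 1 and 4 Hz and replicate 6 inside that of 4 Hz. The highest library was 26.2 times the lowest, against 1.77 times in control, 1.99 times at 1 Hz, and 2.97 times at 4 Hz. The mean was 69.1 ± 78.4 CPM (SD, n = 6). The fitted log2 difference from control was -0.05 ± 0.46 (SE), a mean over libraries that disagree and that depends on the scale. The mean of log2 CPM differed from control by -0.97, and by -1.47 without replicate 3 and -0.53 without replicate 6, the lowest and highest values when single libraries were left out.

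Hspa1b followed the same layout. It was at 246, 289, and 396 CPM in control, at 86.0, 100.3, and 138 CPM at 1 Hz, and at 63.1, 91.8, and 112 CPM at 4 Hz (lowest, median, and highest). The 10 Hz replicates 1 to 6 were at 314, 506, 492, 149, 101, and 80.7 CPM. The groups at 1 and 4 Hz again did not overlap control, and the 10 Hz libraries again lay on both sides of the control range, with replicates 2 and 3 above it and replicates 4 to 6 below it. The log2 difference from control was -1.52 ± 0.32 (SE) at 1 Hz, -1.76 ± 0.32 at 4 Hz, and -0.16 ± 0.31 at 10 Hz, where the last is a mean over libraries that disagree and depends on the scale. For the sum of both copies it was -1.66 ± 0.35 at 1 Hz, -1.88 ± 0.35 at 4 Hz, and -0.14 ± 0.33 at 10 Hz (SE). As a difference of mean log2 CPM, the 10 Hz value was -0.50 for Hspa1b (-0.75 to -0.22 with single libraries left out) and -0.56 for the sum (-0.85 to -0.25).

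The copies did not keep a fixed ratio. Hspa1a held 17.0% to 22.3% of the reads of the pair in control, 9.07% to 12.4% at 1 Hz, and 8.11% to 15.8% at 4 Hz. At 10 Hz its share in replicates 1 to 6 was 15.6%, 17.3%, 29.9%, 13.2%, 8.91%, and 9.02%. The share was thus lower in every library at 1 and 4 Hz than in any control library, and at 10 Hz it was lowest in the libraries where the pair itself was lowest. Because the division of shared reads between copies is an estimate, the ratio is less certain than the sum. A long noncoding RNA on the opposite strand, Gm20481, shares 564 exonic bases with Hspa1a and was at no more than 0.555 CPM in any library.

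**Figure D1:**
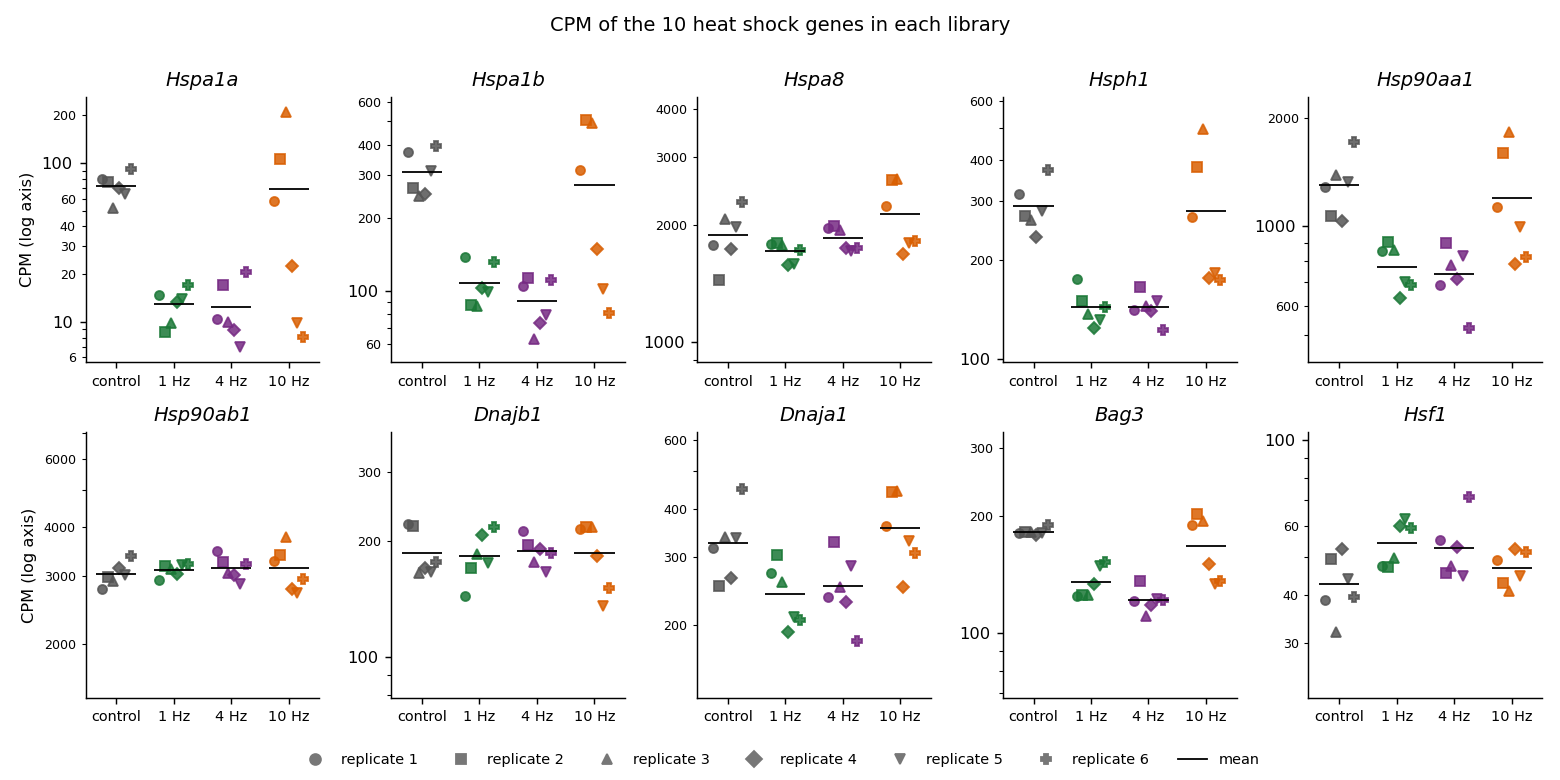
Level of each of the 10 genes in each library, in CPM on log axes, by condition; each point is 1 of 6 libraries, its shape is the replicate number, and the line is the mean of the condition. Hspa1a and Hspa1b lie below control in all libraries at 1 and 4 Hz and lie on both sides of the control range at 10 Hz, while Hsp90ab1 and Dnajb1 overlap control in every condition.

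Hspa8 (chr9:40711630-40731039, plus strand, 9 exons), the Hsp70 that cells make without stress, showed a different picture. It was at 1443, 1879, and 2293 CPM in control, at 1582, 1759, and 1802 CPM at 1 Hz, and at 1717, 1844, and 1989 CPM at 4 Hz (lowest, median, and highest), so all of these ranges overlapped. The log2 difference from control was -0.14 (95% confidence interval -0.36 to 0.09, adjusted p = 0.339) at 1 Hz and -0.03 (-0.25 to 0.20, adjusted p = 0.874) at 4 Hz. At 10 Hz, replicates 1 to 6 were at 2250, 2623, 2641, 1693, 1799, and 1826 CPM. Replicates 2 and 3 were above all control libraries, and the mean difference from control was 0.18 (-0.04 to 0.40, adjusted p = 0.357).

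On a scale corrected for transcript length (TPM), the inducible pair was a minor part of these Hsp70 transcripts. Hspa1a and Hspa1b together made up 8.92% to 14.7% of the summed TPM of Hspa1a, Hspa1b, and Hspa8 in control. The share was 3.43% to 5.70% at 1 Hz and 2.34% to 4.97% at 4 Hz, so no library of these groups reached the lowest control. In replicates 1 to 6 of 10 Hz it was 10.1%, 13.7%, 15.3%, 6.71%, 4.01%, and 3.26%. These shares contain the values that the genes were picked for and are given with no test.

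Hsph1 (chr5:149537636-149560156, minus strand, 18 exons) encodes Hsp105, an Hsp110 that serves Hsp70 as exchange factor and keeps unfolded proteins soluble. It was at 234, 275, and 373 CPM in control, at 124, 140, and 175 CPM at 1 Hz, and at 122, 143, and 166 CPM at 4 Hz (lowest, median, and highest). Every library at 1 and 4 Hz was below every control library. Hsph1 fell, with a log2 difference of -1.01 at 1 Hz (SE 0.19, adjusted p = 0.000269) and -1.005 at 4 Hz (SE 0.19, adjusted p = 0.000203), to 0.496 and 0.498 of control. Its levels in 10 Hz replicates 1 to 6 were 268, 381, 496, 176, 182, and 174 CPM, with replicates 2 and 3 above all control libraries and replicates 4 to 6 below them, and the mean difference was -0.05 (95% confidence interval -0.43 to 0.34, adjusted p = 0.923). This is a mean over libraries that disagree and depends on the scale. Its interval rests on a spread pooled over all conditions and is too narrow for the 10 Hz libraries.

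Between frequencies, Hsph1 was higher at 10 Hz than at 1 Hz by 0.96 on the log2 scale (SE 0.19, adjusted p = 0.00036) and than at 4 Hz by 0.96 (SE 0.19, adjusted p = 0.00106). All 6 of the 10 Hz libraries were above all 4 Hz libraries, and 5 of 6 were above all 1 Hz libraries. The lowest 10 Hz replicate, at 174 CPM, was just under the highest 1 Hz replicate, at 175 CPM. The log2 SD of Hsph1 was 0.65 at 10 Hz against 0.17 at 1 Hz and 0.14 at 4 Hz. The fit pools the spread over all conditions, so these SEs and p-values are too small for the spread at 10 Hz.

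The 2 cytosolic Hsp90 genes parted. Hsp90aa1 (chr12:110656842-110669166, minus strand, 11 exons), the stress-inducible form, was at 1035, 1308, and 1718 CPM in control, at 634, 778, and 902 CPM at 1 Hz, and at 524, 746, and 902 CPM at 4 Hz (lowest, median, and highest), with no overlap between control and either frequency. It fell at both, with a log2 difference of -0.76 at 1 Hz (SE 0.17, adjusted p = 0.00149) and -0.82 at 4 Hz (SE 0.17, adjusted p = 0.000557). In 10 Hz replicates 1 to 6 Hsp90aa1 was at 1134, 1597, 1834, 788, 997, and 824 CPM, of which replicate 3 was above all control libraries and replicates 4 to 6 were below them. The mean difference from control was -0.12 (95% confidence interval -0.48 to 0.23, adjusted p = 0.738), and Hsp90aa1 was higher at 10 Hz than at 1 Hz by 0.63 (SE 0.17, adjusted p = 0.00571) and than at 4 Hz by 0.69 (SE 0.17, adjusted p = 0.0055). Without replicate 3 of 10 Hz the difference from 1 Hz was 0.47, under the fold threshold. The log2 SD of Hsp90aa1 was 0.50 at 10 Hz against 0.21 at 1 Hz and 0.27 at 4 Hz. Its interval, SEs, and p-values at 10 Hz rest on a spread pooled over all conditions and are too small.

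Hsp90ab1 (chr17:45878552-45891949, minus strand, 11 exons), the constitutive form, was at 2783 to 3369 CPM in control, 2924 to 3227 CPM at 1 Hz, 2868 to 3476 CPM at 4 Hz, and 2716 to 3778 CPM at 10 Hz, and all groups overlapped. Its log2 differences from control were 0.04, 0.05, and 0.05 at 1, 4, and 10 Hz, with 95% confidence intervals that reached no further than -0.12 and 0.21 (adjusted p = 0.719, 0.605, and 0.753). It shares 266 exonic bases with Slc35b2 and 1617 with Gm56882 on the opposite strand, and Slc35b2 was at 49.4 to 89.9 CPM.

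The make-up of the Hsp90 transcripts shifted with Hsp90aa1. In TPM, Hsp90aa1 was 32.0 ± 4.61% of the sum of Hsp90aa1 and Hsp90ab1 in control (SD, n = 6), 22.5 ± 3.12% at 1 Hz, 21.4 ± 2.93% at 4 Hz, and 29.9 ± 4.40% at 10 Hz. The share was lower than every control library in 6 of 6 libraries at 1 Hz and 6 of 6 at 4 Hz (2-sided exact permutation p = 0.00216 each, the smallest that 6 against 6 libraries allow, adjusted p = 0.00649 over 6 comparisons). At 10 Hz it was not past the test against control (exact permutation p = 0.439, adjusted p = 0.527) and was higher than at 1 Hz (exact p = 0.00866, adjusted p = 0.013) and 4 Hz (exact p = 0.00433, adjusted p = 0.00866). Between 4 and 1 Hz the exact permutation p was 0.539.

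**Figure D2:**
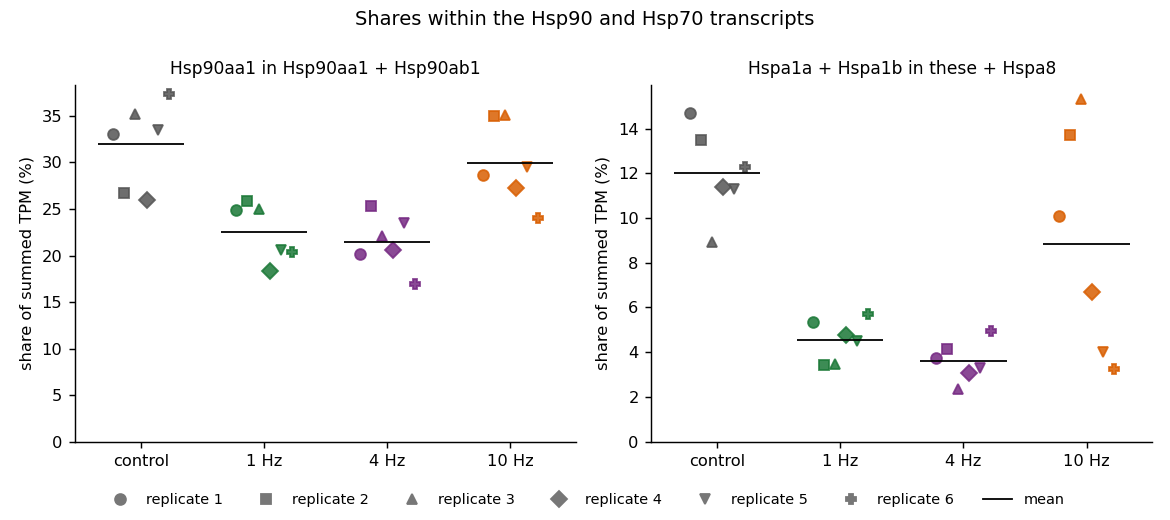
Share of Hsp90aa1 in the summed TPM of Hsp90aa1 and Hsp90ab1 (left) and of Hspa1a plus Hspa1b in the summed TPM of these and Hspa8 (right), in percent, by condition; points are the 6 libraries of each condition, shapes are replicate numbers, and lines are means. The Hsp90aa1 share averaged 32.0% in control, 22.5% at 1 Hz, 21.4% at 4 Hz, and 29.9% at 10 Hz, and the inducible Hsp70 share at 10 Hz ran from 3.26% to 15.3%.

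Of the J-domain genes, neither was called against control. Dnajb1 (chr8:84334811-84339820, plus strand, 3 exons), which works with Hsp70 in refolding and also keeps HSF1 in check, was at 165 to 220 CPM in control, 144 to 216 CPM at 1 Hz, 166 to 212 CPM at 4 Hz, and 136 to 217 CPM at 10 Hz. Its log2 differences from control were -0.02 at 1 Hz (95% confidence interval -0.26 to 0.21, adjusted p = 0.889), 0.01 at 4 Hz (-0.23 to 0.25, adjusted p = 0.952), and 0.00 at 10 Hz (-0.23 to 0.24, adjusted p = 0.994). A change of the size seen for Hsph1 at 1 or 4 Hz lies outside these intervals.

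Dnaja1 (chr4:40722056-40737149, plus strand, 9 exons), which delivers newly made and unfolded proteins to Hspa8, was at 253, 326, and 449 CPM in control, 192, 235, and 303 CPM at 1 Hz, and 183, 244, and 329 CPM at 4 Hz (lowest, median, and highest), so that the groups overlapped. The difference of -0.44 at 1 Hz passed the adjusted p of 0.05 (SE 0.15, adjusted p = 0.0264) but not the fold threshold of 0.5 on the log2 scale, and the difference of -0.37 at 4 Hz passed neither (SE 0.15, adjusted p = 0.0546). The pass at 1 Hz was lost without replicate 6 of control or replicate 4, 5, or 6 of 1 Hz (adjusted p up to 0.0922) and by limma on log2(TPM + 1) (adjusted p = 0.119). At 10 Hz replicates 1 to 6 were at 362, 441, 443, 252, 330, and 307 CPM, all but replicate 4 above all 1 Hz libraries. Dnaja1 was higher there than at 1 Hz by 0.56 (SE 0.15, adjusted p = 0.00507), and by 0.49 without replicate 2 or without replicate 3. The exons of Smu1 on the opposite strand cover 7150 bases of those of Dnaja1, Smu1 was at 127 to 189 CPM, and it is not known from the sources used whether reads were counted by strand.

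Bag3 (chr7:128125283-128148705, plus strand, 4 exons) was the steadiest of the 10 genes in control, at 179, 182, and 189 CPM (lowest, median, and highest), and its SD on the log2 scale there was 0.03 against a median of 0.18 over 9295 genes with a mean of at least 10 CPM. It was at 125, 130, and 152 CPM at 1 Hz and at 110, 121, and 136 CPM at 4 Hz, below every control library in both. Bag3 fell by 0.59 on the log2 scale at 4 Hz (SE 0.09, adjusted p = 2.4e-05), while the difference of -0.43 at 1 Hz passed the adjusted p but not the fold threshold (SE 0.09, adjusted p = 0.000765). At 10 Hz replicates 1 to 6 were at 189, 203, 194, 150, 134, and 136 CPM, and the mean difference from control was -0.12 (95% confidence interval -0.31 to 0.07, adjusted p = 0.499). Against 1 and 4 Hz it was higher at 10 Hz by 0.31 (adjusted p = 0.0089) and 0.47 (adjusted p = 0.000918), both under the fold threshold. The log2 SD of Bag3 was 0.27 at 10 Hz against 0.13 at 1 Hz and 0.10 at 4 Hz, and the fit pools the spread over all conditions.

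Hsf1 (chr15:76361558-76388138, plus strand, 13 exons), the activator of heat shock genes, differed from control in the other direction and by less. It was at 32.0, 41.6, and 52.4 CPM in control, at 47.1, 54.5, and 62.5 CPM at 1 Hz, at 44.6, 50.2, and 71.2 CPM at 4 Hz, and at 40.8, 46.9, and 52.6 CPM at 10 Hz (lowest, median, and highest), and all groups overlapped. Its log2 differences from control of 0.35 at 1 Hz (SE 0.12, adjusted p = 0.0252) and 0.31 at 4 Hz (SE 0.12, adjusted p = 0.0426) passed the adjusted p but not the fold threshold, and the difference of 0.14 at 10 Hz passed neither (adjusted p = 0.566). The pass at 1 Hz was lost without replicate 1 or 3 of control or replicate 4, 5, or 6 of 1 Hz (adjusted p up to 0.0784), and that at 4 Hz without replicate 1, 3, 5, or 6 of control or replicate 1, 4, or 6 of 4 Hz (adjusted p up to 0.143). With total count scaling neither passed. Exons of Dgat1 and Bop1 on the opposite strand cover 2486 and 522 of its exonic bases, and Bop1 was at 55.7 to 115 CPM. The level of the Hsf1 transcript does not measure the activity of the protein, which is set by its folding partners and phosphorylation.

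Counted over the 8 genes other than Hspa1a and Hspa1b, at an adjusted p below 0.05 and a log2 difference above 0.5, 2 fell at 1 Hz (Hsph1 and Hsp90aa1), where 8.99% of all genes tested fell and 18.3% were called in either direction. At 4 Hz 3 fell (these and Bag3), where 9.61% of all genes fell and 20.1% were called. At 10 Hz edgeR called 0 of 8, where 1.86% of all genes were called, and 0 of 8 were at an unadjusted p under 0.05; DESeq2 also called 0. Because the genes were picked on these comparisons, which also share the 6 control libraries, nothing is read from the counts. The median log2 difference of the 8 genes was -0.29, -0.20, and 0.03 at 1, 4, and 10 Hz, and that of all genes was -0.01 in each. The groups did not overlap for 3 of 8 genes at 1 Hz and 3 of 8 at 4 Hz, all lower, where 13.1% and 16.6% of all genes did not overlap, and for 0 of 8 at 10 Hz, where 2.58% did not. By the adjusted p alone, 5 of 8 passed at 1 Hz, 4 at 4 Hz, and 0 at 10 Hz, where 35.4%, 39.4%, and 4.89% of all genes did.

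The frequencies 1 and 4 Hz could not be separated by these genes. In 4 Hz against 1 Hz, edgeR called 0 of 8 and 0 were at an unadjusted p under 0.05, where 3.00% of all genes were called; DESeq2 also called 0. The interval of the difference was -0.38 to 0.40 for Hsph1 and -0.42 to 0.29 for Hsp90aa1, so differences within these intervals could not be seen. In 10 Hz against 1 Hz, 3 of 8 were higher (Hsph1, Hsp90aa1, and Dnaja1), where 9.45% of all genes were higher and 17.9% were called, and in 10 Hz against 4 Hz 2 of 8 were higher (Hsph1 and Hsp90aa1), where 5.32% were higher. By the adjusted p alone 5, 4, and 0 of 8 passed in 10 Hz against 1 Hz, 10 Hz against 4 Hz, and 4 Hz against 1 Hz, where 36.3%, 22.8%, and 12.3% of all genes did. The groups did not overlap for 0, 1, and 0 of 8 genes in the same order, where 13.2%, 6.20%, and 5.70% of all genes did not. The 10 Hz libraries in these comparisons are those whose spread the genes were picked for.

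**Figure D3:**
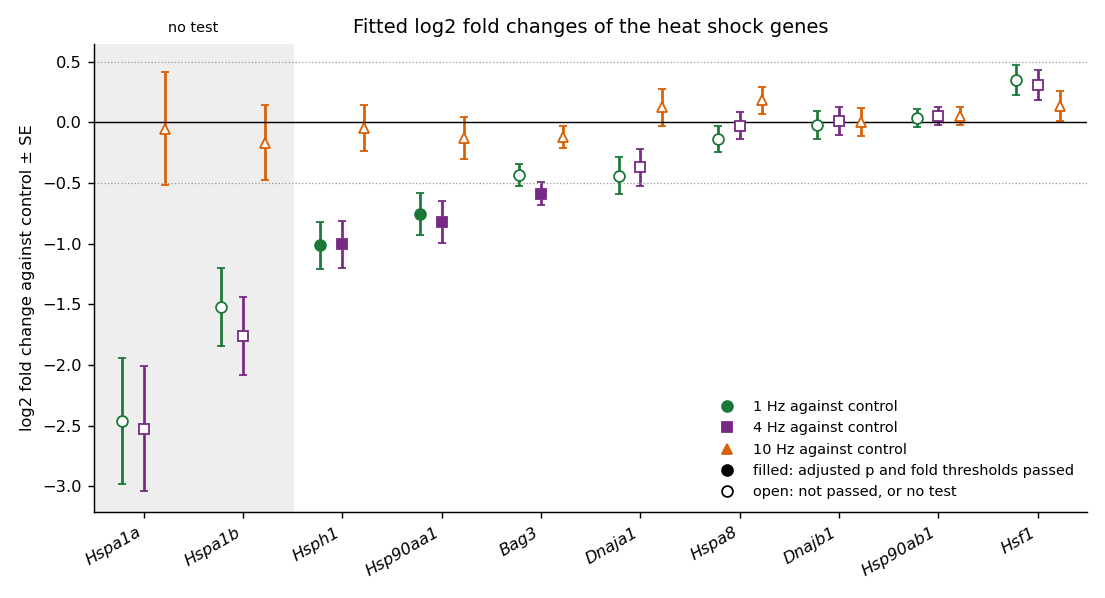
Fitted log2 fold change of each of the 10 genes against control, with its standard error, at 1 Hz (circles), 4 Hz (squares), and 10 Hz (triangles); filled symbols passed the adjusted p and the fold threshold, dotted lines mark a log2 difference of 0.5, and the shaded genes carry no test. Values ran from -2.52 for Hspa1a at 4 Hz to 0.35 for Hsf1 at 1 Hz. All 10 Hz values lay between -0.165 and 0.182. Those of Hspa1a, Hspa1b, Hsph1, Hsp90aa1, Hsp90ab1, and Bag3 are means over libraries that lay on both sides of the control range.

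When the share of the 19 small RNAs was added to the fit as a covariate, 0 of 8 genes were called at 1 Hz and 0 of 8 at 4 Hz, and of the 13318 genes tested 1 was called at 1 Hz and 251 at 4 Hz. Hsph1 then differed from control by -0.31 at 1 Hz (adjusted p = 0.743) and -0.29 at 4 Hz (adjusted p = 0.615), and Hsp90aa1 by -0.18 (adjusted p = 0.870) and -0.24 (adjusted p = 0.669). Bag3 at 4 Hz differed by -0.37 (adjusted p = 0.167). Between 10 Hz and 1 Hz Hsph1 then differed by 0.32 (adjusted p = 0.521) and Hsp90aa1 by 0.12 (adjusted p = 0.842). There 0 of 8 genes were called, where 1.83% of all genes were called. In bulk RNA, fewer cells of a type and less RNA per cell cannot be told apart either, and the summed muscle markers were higher at 1 and 4 Hz than in control (2-sided exact permutation p = 0.00216 each, adjusted p = 0.0081, n = 6 per condition), with no part of that in the heat shock values tested.

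The 10 Hz libraries were ordered alike by most of the genes. Replicates 1, 2, and 3 were the highest 3 for Hspa1a and Hspa1b, which the choice of genes rests on, and also for 7 of the other 8 genes; in Hsf1 the order was replicate 4, 6, 1, 5, 2, 3 from high to low. The same 3 replicates were highest for 1221 of the genes tested, or 9.17%. The small RNA share of replicates 1 to 6 was 177, 271, 110, 81.0, 67.5, and 38.3 CPM, so the same 3 libraries were highest there too, and its part in the order was not tested.

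The spread at 10 Hz was beyond that of most genes for some members and less so for others. The SD on the log2 scale between the 6 libraries was 1.90 for Hspa1a and 1.16 for its copy Hspa1b, values that the choice of genes rests on. Among all 9295 genes with a mean of at least 10 CPM, the median SD at 10 Hz was 0.18 and the 95th percentile 0.38. Of the other 8 genes, Hsph1 at 0.65 and Hsp90aa1 at 0.50 lay above that percentile. Dnaja1 at 0.32, Dnajb1 at 0.30, Hspa8 at 0.29, Bag3 at 0.27, Hsp90ab1 at 0.19, and Hsf1 at 0.15 lay under it. In control the SDs of these genes were 0.30, 0.19, 0.23, 0.03, 0.09, and 0.26 in the same order.

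**Figure D4:**
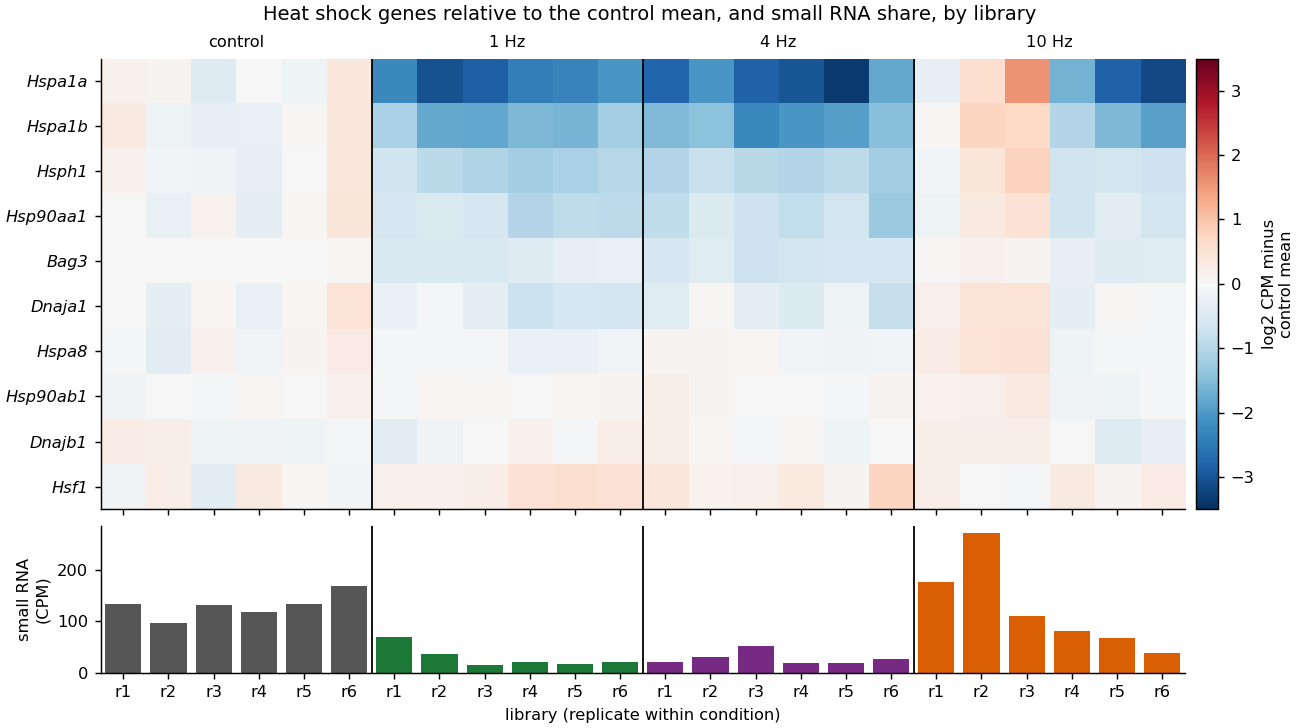
Top, log2 CPM of each of the 10 genes in each of the 24 libraries minus its mean over the 6 control libraries (blue lower, red higher); bottom, the summed share of 19 small RNAs without a poly(A) tail in the same libraries, in CPM. Hspa1a, Hspa1b, Hsph1, Hsp90aa1, and Bag3 are blue throughout 1 and 4 Hz, and at 10 Hz replicates 4 to 6 are blue for these genes while replicates 2 and 3 are red.

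Levels can be ordered across genes in TPM. In control the mean TPM was 1946 for Hsp90ab1, 1511 for Hspa8, 924 for Hsp90aa1, 318 for Dnaja1, 196 for Hsph1, 169 for Hspa1b, 110 for Bag3, 95.3 for Dnajb1, 37.4 for Hspa1a, and 35.2 for Hsf1. The library ranges of Hsp90ab1 and Hspa8 overlapped, as did those of Hspa8 and Hsp90aa1, Hsph1 and Hspa1b, Bag3 and Dnajb1, and Hspa1a and Hsf1, so the order of these neighbors is within the spread between libraries. Within a library, Hsp90ab1 was above Hspa8 and Hspa8 above Hsp90aa1 in 6 of 6, Hsph1 was above Hspa1b in 5 of 6, and Bag3 was above Dnajb1 in 4 of 6. At 1 Hz, Hspa1a was at 4.40 to 8.10 TPM and Hsf1 at 36.8 to 53.7 TPM, with Hspa1a lower in every library. Hspa1b at 1 Hz had a mean of 56.2 TPM, under the 77.9 of Bag3 and the 89.2 of Dnajb1 that it exceeded in control.

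Across the 24 libraries and 9293 genes with a mean of at least 10 CPM, the genes whose log2 CPM followed the sum of Hspa1a and Hspa1b most closely were Bag3 (Pearson r = 0.944), Hsph1 (0.937), Tigit (0.897), Apol9b (0.896), and Nefl (0.894). Hsp90aa1 ranked 47 (0.840), Dnaja1 675, Hspa8 1061, Dnajb1 2050, Hsp90ab1 2501, and Hsf1 7548 (-0.504). These points share the 4 conditions, and with them the difference in small RNA share. With the condition means taken out, Bag3 (0.871) and Hsph1 (0.859) again led, followed by Rnf19b (0.823), Ankfy1 (0.800), and Hmga1 (0.794). On that measure, which the 10 Hz libraries dominate, Hsp90ab1 ranked 32, Hspa8 63, Dnajb1 94, Hsp90aa1 129, Dnaja1 670, and Hsf1 6080. By Spearman's rho of levels Bag3 ranked 13 (0.859) and Hsph1 129 (0.780), so the leading rank of both depends on the measure. By Spearman's rho with the condition means taken out, Spns1 led (0.860), Bag3 ranked 2 (0.797), and Hsph1 46 (0.675). There Hsp90ab1 ranked 50, Hspa8 178, Dnajb1 230, Hsp90aa1 807, Dnaja1 1194, and Hsf1 5049. These correlations are descriptions of genes picked on the same libraries and carry no p-value.

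Of 77 other genes tested in 8 lists of chaperones and their regulators, 12 rose and 4 fell at 1 Hz, and 14 rose and 3 fell at 4 Hz. Of all genes tested, 18.3% were called at 1 Hz and 20.1% at 4 Hz, and a share near these is no result about a list. The chaperones of the endoplasmic reticulum, which fold proteins for secretion and the membrane, rose at 1 Hz in 8 of 11 genes and at 4 Hz in 8 of 11, with 0 lower, where 9.34% and 10.5% of all genes tested rose. Hspa5, the Hsp70 of that compartment, was higher by 1.20 at 1 Hz (SE 0.14, adjusted p = 2.25e-06) and 1.55 at 4 Hz (SE 0.14, adjusted p = 5.09e-08) on the log2 scale. Sdf2l1 was higher by 1.27 and 1.67, the calcium-binding lectin chaperone Calr by 1.08 and 1.47, Hsp90b1, the Hsp90 of that compartment, by 0.96 and 1.00, and the disulfide isomerase Pdia4 by 0.84 and 0.89. Hyou1, its Hsp110, was higher by 0.74 at 1 Hz and Pdia3 by 0.73 at 4 Hz. At 10 Hz 0 of 11 were called by edgeR, where 1.86% of all genes tested were called, and all 11 log2 differences lay between -0.05 and 0.30. The median log2 difference of this list was 0.74, 0.72, and 0.10 at 1, 4, and 10 Hz, against -0.01 over all genes tested in each. With the small RNA share as a covariate, an alternative chosen for this list after its values were seen, 0 of 11 were called at 1 Hz and 4 of 11 at 4 Hz, all higher, with medians of 0.56 and 0.62. Of all genes tested, 0.00751% and 1.88% were called in that fit.

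Among 7 small heat shock proteins, Hspb1 (Hsp27), an inducible holdase, fell, with a log2 difference of -0.76 at 1 Hz (SE 0.16, adjusted p = 0.000565) and -0.88 at 4 Hz (SE 0.16, adjusted p = 0.000102), without overlap with control. Hspb7 and Hspb3 rose, Hspb7 by 0.97 and 1.32 and Hspb3 by 0.58 and 1.11, at 1 and 4 Hz. Hspb3 was at a mean of only 3.14 CPM in control. Cryab, Hspb2, Hspb6, and Hspb8 were not called. By edgeR, Cryab was lower at 1 Hz (-0.34, adjusted p = 0.00989), under the fold threshold. Hspb2, Hspb6, and Hspb8 passed the adjusted p at 4 Hz, all higher. At 10 Hz 0 of 7 were called, where 1.86% of all genes tested were called.

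Of 20 exchange factors and Hsp90 cochaperones, 2 rose at 1 Hz and 2 at 4 Hz, a share near the 9.34% and 10.5% of all genes. These were Unc45b and Smyd1, which work with Hsp90 in myosin folding: Unc45b rose by 0.90 and 0.87 and Smyd1 by 0.63 and 0.80. Ppid, a cyclophilin that binds Hsp90, fell by 0.57 at 1 Hz and was the only one lower. Of 9 other J-domain genes Dnajc2 fell at 1 Hz (-0.64), and of 7 other Hsp70 and Hsp110 genes tested Hspa1l fell at 4 Hz (-0.63, at a mean of 2.85 CPM at 4 Hz), with no other gene of these lists called.

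Of 4 genes of the HSF family and its regulators, Hsf2 fell at 1 Hz (-0.60) and 4 Hz (-0.52), and Hsf2bp rose by 0.67 at 4 Hz. For this list and the next, 18.3% and 20.1% of all genes tested were called at 1 and 4 Hz. Of 13 chaperonin and prefoldin genes 1 was called, Pfdn5 at 4 Hz (0.62), and of 6 mitochondrial chaperones 0 were called against control. At 10 Hz 0 of the 77 genes of these lists were called against control.

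**Figure D5:**
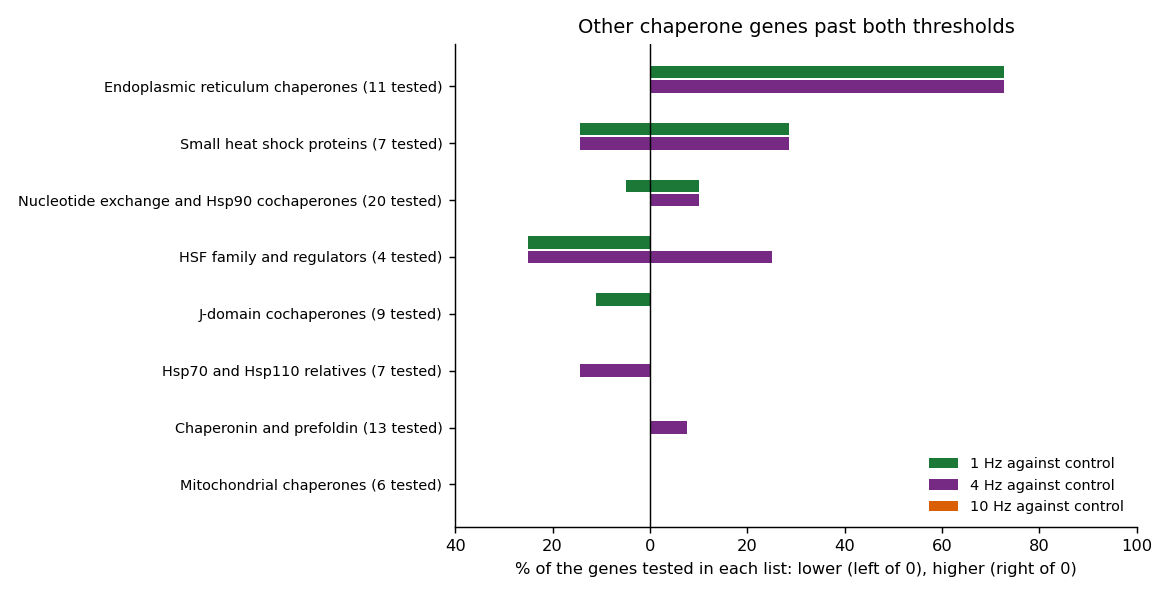
Percentage of the genes tested in each of 8 chaperone lists that passed the adjusted p and fold thresholds against control, lower to the left of 0 and higher to the right, at 1 Hz (green) and 4 Hz (purple). At 10 Hz there were none, where 1.86% of all genes tested were called. The endoplasmic reticulum list stands out with 8 of 11 genes higher at 1 Hz and at 4 Hz, while the other lists hold at most 2 higher genes and 1 lower gene.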

How the data were processed

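Directional libraries of poly(A) RNA were made by the authors and read for 50 bases from both ends; per the labels some low-input samples were ribodepleted instead, without saying which. The authors ran nf-core/rnaseq (STAR and Salmon) on GRCm39 with Ensembl genes. The deposited tables held salmon estimated counts (expected counts per gene, not normalized) and TPM values scaled by the authors within each library. The use of strand in counting is not given in the sources used here. Groups and replicate numbers came from the sample titles. The study calls the replicates biological, and they were wells of the same cell line in the same experiment. The p-values set differences between conditions against the spread between these wells.

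Estimated counts were rounded. edgeR 4.0.16 (filterByExpr, TMM, glmQLFit, glmQLFTest; R 4.3.3) was fitted to the 24 libraries together, by condition alone (13318 genes tested, common dispersion 0.0233), and Benjamini-Hochberg adjustment was over all genes tested. A gene was called when its adjusted p was under 0.05 and its log2 fold change was over 0.5 in size, as in the study. CPM of single genes used TMM-scaled library sizes; composition shares used total counts. Shares were compared with 2-sided exact permutation tests. Depth was 4.09 to 15.2 M counts per library. The fit was tested on simulated data.

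The genes and lists were chosen with earlier results of these data known. All 10 genes are named, and from the other lists each gene called against control, up to 6 per list and comparison. Gene positions came from GENCODE M39 and promoters from RefSeq (GRCm38.p6), matched by sequence to GRCm39.

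Alternatives were DESeq2 1.42.0 size factors, total count scaling, no filter, a minimum mean of 5 CPM, DESeq2 with and without apeglm 1.24.0, limma 3.58.1 on log2(TPM + 1) and log2(TPM + 0.1) with a mean TPM of at least 1, limma on log2(TPM + 1) without a filter, only the 12 libraries compared, the replicate block, an adjusted p alone, both Hspa1 copies summed, the small RNA share as a covariate, and leaving out each library in turn. A gene of the immediate early and stress list that met the rule for named genes is counted but not reported here by name.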

Additional observations from a re-analysis of the deposited data

Results flagged for a closer look

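In control, Bag3 in replicate 6 stood apart at 189.4 CPM from the other 5 libraries, which lay close together. It was 1 of 44 sets of 6 libraries that met a test for a single distant value, and chance flags about 1 in 20 such sets.

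Levels differed between frequencies for 3 genes in 10 Hz against 1 Hz by edgeR's quasi-likelihood test: Hsp90aa1 by 0.631 on the log2 scale, Dnaja1 by 0.565, and Hsph1 by 0.965, all higher at 10 Hz. With the small RNA share as a covariate these differences were 0.116, 0.165, and 0.324. None was called in that fit, where 1.83% of all genes were called. Leaving out single libraries took Hsp90aa1 down to 0.47 and Dnaja1 to 0.49, under the fold threshold. In 10 Hz against 4 Hz the difference was 0.695 for Hsp90aa1 and 0.957 for Hsph1. The 10 Hz libraries that enter these values were spread widely, with replicates 4 to 6 of Hsp90aa1 at 788 to 997 CPM and replicates 1 to 3 at 1134 to 1834 CPM. The genes were picked for the spread of these libraries.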

How the results depend on the processing

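The count of the 8 genes called against control was 2 at 1 Hz and 3 at 4 Hz, and between frequencies 3 in 10 Hz against 1 Hz and 2 in 10 Hz against 4 Hz. Total count scaling gave 4 at 1 Hz against control and 4 in 10 Hz against 4 Hz. The share of all genes called is not given for that scaling, so nothing is read from these counts. That scaling moved the median of all genes by at most 0.096 on the log2 scale in size, at 4 Hz, where it was lower. An adjusted p alone gave 5 at 1 Hz, 5 in 10 Hz against 1 Hz, and 4 in 10 Hz against 4 Hz, since it drops the fold threshold. Limma on log2(TPM + 1) without a filter gave 1 in 10 Hz against 1 Hz, and the cause was not tested. The small RNA share as a covariate gave 0 in all 4 of these comparisons. In that fit 0.00751% of all genes were called at 1 Hz and 1.88% at 4 Hz against control. Between frequencies, 1.83% were called in 10 Hz against 1 Hz and 0.00% in 10 Hz against 4 Hz. With so few genes called, 0 of 8 is no result about these genes. The covariate turned the sign of Dnaja1 at 1 Hz (0.024) and of Hspa8 in 10 Hz against 1 Hz (-0.019). At 1 and 4 Hz it cannot be told apart from stimulation. Leaving out single libraries gave 2 to 3 at 1 Hz against control and 3 throughout at 4 Hz. It gave 1 to 3 in 10 Hz against 1 Hz, with 1 without replicate 3 of 10 Hz. In 10 Hz against 4 Hz it gave 2 to 4, with 4 without replicate 2 of 4 Hz, replicate 5 of 10 Hz, or replicate 6 of 10 Hz. Sign changes of values past the adjusted p in neither fit, 116 of 1350 single-gene values, were not counted as turned.

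Same-numbered libraries deviated together (r over 0.1) in 10 of 36 pairs, with a mean correlation of 0.0499 against -0.01 for other numbers. Of 24 libraries, 10 were closest to a library of their own number. What the numbers stand for is not stated, and the main fit did not pair the samples. The replicate block changed the call of none of the 54 values and counts, with 2 genes called at 1 Hz, 3 at 4 Hz, and 0 at 10 Hz against control. DESeq2, DESeq2 size factors, and summed Hspa1 copies also changed none, and DESeq2 with apeglm none of the 27 it was run for. Between frequencies, other settings moved single calls of Dnaja1, Bag3, and Hsp90aa1: limma on filtered TPM left Dnaja1 under the fold threshold in 10 Hz against 1 Hz (0.42), and a minimum mean of 5 CPM or only the 12 libraries compared added it in 10 Hz against 4 Hz. Against control, leaving out 1 library added Dnaja1 at 1 Hz (lowest log2 difference -0.513). Depth limits Hspa1a most, at 35 counts in its lowest library.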

Other observations

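The immediate early and stress genes went in mixed directions. Of 12 tested, 2 rose and 1 fell at 1 Hz, 3 rose and 6 fell at 4 Hz, and 1 rose and 2 fell at 10 Hz (edgeR, adjusted p below 0.05 and a log2 difference above 0.5), where 18.3%, 20.1%, and 1.86% of all genes tested were called. Fos, an early response transcription factor, fell at 1, 4, and 10 Hz, with log2 differences of -1.26, -2.26, and -1.01. Egr1 fell at 4 Hz (-1.18) and 10 Hz (-1.09). Fosb rose by 0.83 at 1 Hz, where it was at 41.1 ± 8.67 CPM against 23.3 ± 5.64 CPM in control (SD, n = 6), and fell by 0.825 at 4 Hz, and Atf3 rose by 0.58 at 1 Hz.

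Jun (-0.88) and Gadd45b (-0.825) fell at 4 Hz, while Junb rose by 0.94. Hmox1, an oxidative stress gene, rose by 0.64 at 4 Hz and 0.67 at 10 Hz, while its log2 difference of 0.49 at 1 Hz passed the adjusted p (0.0012) but not the fold threshold.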
